A study of Danio rerio with 25 samples.

Results

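The glucocorticoid receptor gene nr3c1 and 4 genes that respond to it or set the amount of its ligand were followed through a dexamethasone course and in cdkn1a crispants. The 5 genes were taken by Ensembl identifier out of the 32520 genes listed in both count tables, and all 5 passed the filter on low counts in both tables. They were nr3c1 (ENSDARG00000025032), fkbp5 (ENSDARG00000028396), pck1 (ENSDARG00000013522), pomca (ENSDARG00000043135) and hsd11b2 (ENSDARG00000001975). The rule named the identifiers and used none of their values, although it was written with earlier results of these data known. The course consisted of 15 libraries of whole zebrafish larvae carrying the Tg(Ola.Sp7:nlsGFP) reporter, which marks osteoblasts with a nuclear green fluorescent protein, kept in 10 µM dexamethasone (DEX) and collected as 3 libraries (a, b and c) on each of days D3, D4, D5, D6 and D7. The labels count these days from the addition of DEX, whereas the study's methods count them from fertilization and start the exposure on the earliest of them. No vehicle library was analysed here, so the exposure and normal larval development cannot be told apart in a difference between days. The second table held 5 libraries of cdkn1a crispants, which are injected, mosaic larvae in which Cas9 and a pool of guide RNAs cut cdkn1a in only some of the cells, and 5 libraries of WT larvae. The titles of all 5 crispant samples name cdkn1a, whereas the treatment field numbers them sgCdkn1a to sgCdkn5a, and all were taken as cdkn1a crispants from their titles. The labels give neither an age nor a DEX exposure for these 10 libraries. The study's methods name the same 5 days for WT and crispant samples, without a day for each library. Ages may therefore differ within and between these groups. Nothing says whether the libraries of a group came from separate clutches, so the p-values measure the spread between these libraries, which may be technical.

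The glucocorticoid receptor is a ligand-activated transcription factor that waits in the cytoplasm in a complex with heat shock chaperones and moves to the nucleus once cortisol or a synthetic steroid such as DEX binds. There it activates genes that include fkbp5, whose product is a co-chaperone that lowers the ligand affinity of the receptor, and pck1, which encodes the cytosolic phosphoenolpyruvate carboxykinase of gluconeogenesis. In the pituitary the receptor represses pomca, the precursor of the hormone that drives cortisol synthesis in the interrenal gland, and this forms the negative feedback of the stress axis. The enzyme encoded by hsd11b2 turns cortisol into inactive cortisone. Long exposure to glucocorticoids causes bone loss in humans, which the DEX larvae are meant to model.

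Total counts on genes ranged over 13685297 to 21812411 per library in the course and 30330699 to 38467088 in the second table, so fkbp5 had at least 1319 counts and pck1 at least 1308 in every library, whereas pomca had only 18 to 66 counts in the course. The c library stood apart on every day: in log2 CPM (counts per 1000000 counts of the library), a and b of a day lay 0.391 to 0.462 apart as a root mean square over genes, and c lay 0.806 to 1.14 from either. In the second table the crispant column numbers start again after 3 libraries, and the first principal component (38.2% of the variance) parted those 3 crispant libraries and 3 WT libraries from the other 2 of each group. These are called the first and the second set here, and the WT libraries were placed in them by that component alone. The targeted gene cdkn1a had 8.44, 9.98 and 8.18 CPM in the crispants of the first set, against 17.8, 18.0 and 20.5 CPM in its WT libraries. In the second set it had 1.68 and 1.72 CPM in crispants, against 3.69 and 4.70 CPM in WT. Hence cdkn1a was lower in crispants within both sets, while its level differed more between the sets than between the groups.

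To ask which genes of the receptor pathway changed over the DEX course, D7 was compared with D3 first. Transcripts of fkbp5, pck1 and hsd11b2 rose, and those of nr3c1 and pomca did not pass the test. At a threshold of 0.05 on the adjusted p of edgeR's test, 3 of the 5 genes were called, all of them higher on D7. Among the 21750 genes tested, 25.3% were called in this comparison, 11.8% higher and 13.5% lower on D7. On D4 the rise of fkbp5 was already in place, with 1 of the 5 genes called against D3 where 0.189% of all genes were called. In bulk RNA of whole larvae, fewer cells of a type and less RNA per cell cannot be told apart.

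The receptor itself changed little. In the a, b and c libraries, nr3c1 had 69.0, 58.6 and 63.0 CPM on D3, 59.2, 47.0 and 51.2 CPM on D4, 53.2, 57.2 and 58.1 CPM on D5, 47.3, 65.6 and 71.9 CPM on D6, and 63.5, 65.9 and 71.0 CPM on D7. The D6 libraries had the widest spread and overlapped every other day, and D3 overlapped D7. The D7 libraries lay above those of D4 and D5, for which the share of all genes was not counted. The D5 libraries lay just below those of D3, as did those of 18.2% of all genes. The mean was 66.8 ± 3.85 CPM on D7 and 63.5 ± 5.22 CPM on D3 (SD, n = 3 each), a log2 fold change of 0.24 with a standard error of 0.21 (adjusted p = 0.442). The test for any difference between the 5 days did not call nr3c1 either (adjusted p = 0.484). A change of about the size of the standard error was not detectable with this spread.

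The largest share of the fkbp5 rise fell between D3 and D4. This co-chaperone of the receptor had 104, 84.5 and 162 CPM on D3 and 547, 462 and 699 CPM on D4. It then had 633, 678 and 989 CPM on D5, 641, 785 and 923 CPM on D6, and 657, 747 and 207 CPM on D7. All libraries of the later days lay above the D3 libraries, and on D7 the c library lay far below the other two. The mean was 569 ± 120 CPM on D4 and 117 ± 40.5 CPM on D3, which gave a log2 fold change of 2.32 ± 0.43 (standard error, adjusted p = 0.047). On D7 the mean was 537 ± 289 CPM, and the log2 fold change over D3 was 2.27 ± 0.43 (adjusted p = 0.00188).

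The call of fkbp5 on D4 lay close to the threshold. It held under all 6 alternatives of processing (log2 fold change 2.32 to 2.43, adjusted p 6.54e-07 to 0.0414), with an adjusted p of 7.78e-06 in DESeq2. Of the 15 edgeR fits that left out 1 library, however, only 4 kept it, namely those without the c library of D3, D5, D6 or D7. Without any 1 of the other 11 libraries the log2 fold change was 2.04 to 2.49 and the adjusted p was 0.0555 to 0.356, the highest being without the b library of D3. On D4 all 3 libraries of fkbp5 and of hsd11b2 exceeded all 3 on D3, as did those of 6.24% of all genes. The D7 call of fkbp5 held in all 15 such fits (adjusted p up to 0.0139).

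The gluconeogenic enzyme gene pck1 reached its highest mean on D5. It had 86.2, 131 and 276 CPM on D3, 445, 272 and 516 CPM on D4, and 769, 1032 and 1106 CPM on D5. It had 768, 859 and 770 CPM on D6 and 833, 949 and 1005 CPM on D7. The D4 libraries still overlapped D3, since the b library of D4 had 272 CPM and the c library of D3 had 276 CPM, and from D5 on no library overlapped D3. All D5 libraries also exceeded all D3 libraries for fkbp5 and hsd11b2, and for 11.9% of all genes. On D7, in CPM by library total, this held for fkbp5 and pck1 but not for hsd11b2, and for 15.2% of all genes.

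For pck1, the mean was 929 ± 88.0 CPM on D7 and 164 ± 99.1 CPM on D3, a log2 fold change of 2.63 ± 0.43 (adjusted p = 0.000782). Without any 1 library it was 2.29 to 3.28 and the gene stayed called. The earlier steps were not called: the log2 fold change was 1.34 ± 0.41 on D4 over D3 (adjusted p = 0.373) and 1.26 ± 0.41 on D5 over D4 (adjusted p = 0.578). The step to D4 was called without the c library of D3 (log2 fold change 2.0, adjusted p = 0.0116). The liver is a main site of pck1 expression, and the 7 liver marker genes summed to 2082 to 6792 CPM on D7 and 10047 to 12785 CPM on D3. Most of this sum came from apoa1b and apoa2, and the members were not uniform. Of the 7, 3 were called lower (tfa, cp and ambp), 1 was called higher (fabp10a, 2.35, adjusted p = 0.0387) and 3 were not called. Among all genes 13.5% were lower and 11.8% higher. All 7 liver markers had counts on both days, and their part in the pck1 result was not tested.

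The cortisol-inactivating enzyme gene hsd11b2 was higher on each successive day in the a and b libraries, and up to D5 in the c libraries. It had 40.1, 40.0 and 48.8 CPM on D3, 72.1, 80.6 and 100 CPM on D4, 101, 93.1 and 125 CPM on D5, 129, 140 and 85.2 CPM on D6, and 167, 161 and 41.6 CPM on D7. The a and b libraries were highest on D7, whereas the D7 c library lay inside the range of D3 in CPM by library total. The tests scale each library total by a TMM factor, which was 0.805 for D7 c and 0.988 to 1.11 for D3. On that scale the D7 c library lay above the D3 libraries. The mean was 123 ± 71.0 CPM on D7 and 42.9 ± 5.05 CPM on D3, with a log2 fold change of 1.59 ± 0.38 (adjusted p = 0.0084). The call held in all 15 fits without a library (1.35 to 2.02, adjusted p up to 0.042). Against D3, the change on D4 was 1.02 ± 0.38 on the log2 scale and was not called (adjusted p = 0.506).

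The hormone precursor gene pomca was sparsely counted in whole larvae. Its libraries had 1.78, 1.15 and 2.77 CPM on D3, 2.33, 2.04 and 1.74 CPM on D4, 2.67, 3.10 and 2.92 CPM on D5, 1.29, 2.60 and 4.05 CPM on D6, and 1.80, 1.83 and 1.09 CPM on D7. The days overlapped, except that the D5 libraries lay above those of D4 and D7. The test for any difference between the days did not call pomca (adjusted p = 0.502). The log2 fold change of D7 over D3 was -0.17 ± 0.42 (adjusted p = 0.804), and a change of that size could not be detected with this spread between libraries. The 7 identifiers of the pituitary marker list other than pomca summed to 20.9 to 59.3 CPM on D7 and 14.8 to 35.4 CPM on D3.

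**Figure D1:**
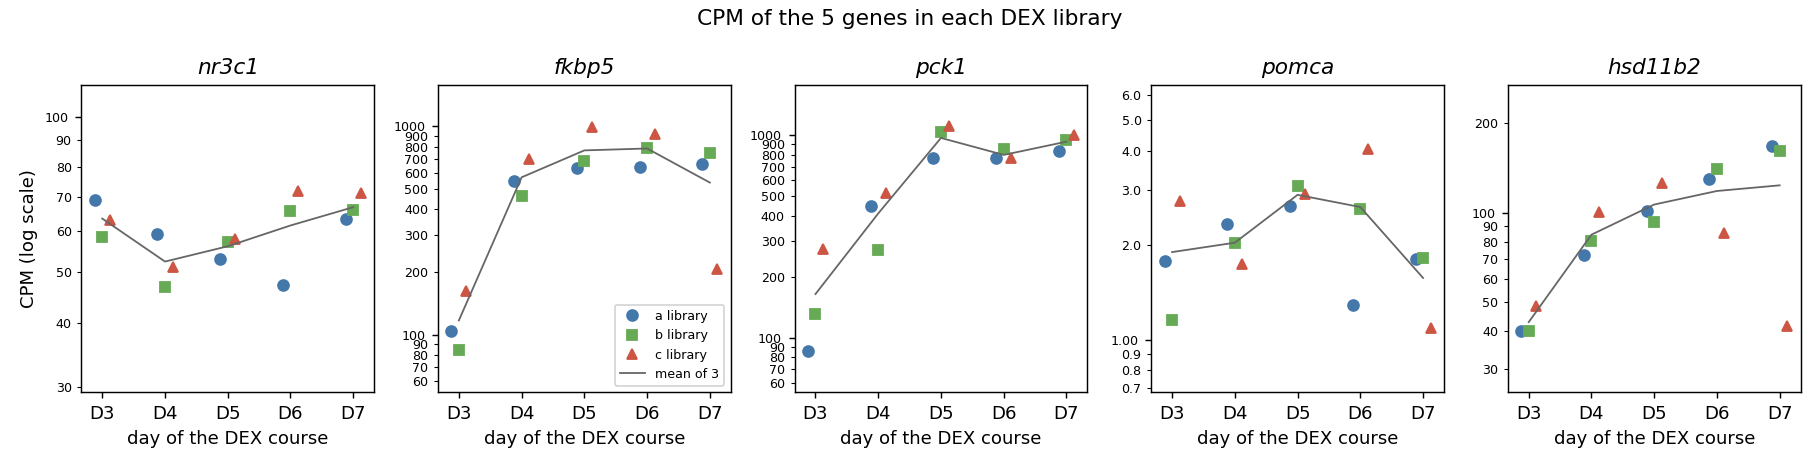
CPM (log scale) of the 5 genes in each of the 15 DEX libraries by day. Points are the a, b and c libraries and the line joins the means of 3; fkbp5, pck1 and hsd11b2 climb after D3, and the D7 c library falls to 207 CPM for fkbp5 and 41.6 CPM for hsd11b2.

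Between successive days after D4, none of the 5 genes passed the test. The counts called by edgeR were 0 of 5 for D5 over D4, where 0.0092% of all genes were called, and 0 of 5 for both D6 over D5 and D7 over D6, where 0% were called. At an unadjusted p below 0.05 these counts were 1 (pck1), 0 and 0, where 1394, 1313 and 907 of the 21750 genes tested passed. DESeq2 called 0 of the 5 genes in each. The step of fkbp5 from D6 to D7 had a log2 fold change of -0.54 ± 0.41, and that of hsd11b2 was 0.08 ± 0.37.

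Set against the other 4 days together, D3 was the day on which the genes stood out. On D3, fkbp5 was lower by a log2 fold change of -2.57 ± 0.40 (adjusted p = 0.00394), pck1 by -2.30 ± 0.48 (adjusted p = 0.0154) and hsd11b2 by -1.39 ± 0.33 (adjusted p = 0.0239). Among all genes tested, 7.89% were called and 3.49% were called lower on D3, beside these 3 of 5. All 3 calls were lost without the a library of D3 or without its b library. The adjusted p then lay at 0.0714 and 0.0725 for fkbp5, 0.140 and 0.167 for pck1 and 0.155 and 0.184 for hsd11b2. For D4, D5, D6 and D7 against the other days edgeR called 0 of the 5 genes, where 0%, 0%, 0% and 0.0598% of all genes were called. DESeq2 called 0 of the 5 in each. At an unadjusted p below 0.05 edgeR had 0 of the 5, where 1208, 215, 1559 and 4625 of all genes passed. In these fits the low D3 libraries were among the other days, which widened the spread. The standard error of fkbp5 on D5 was 0.57, against 0.30 in the five-group model. In the five-group model, D7 against the mean of the other days called 1 of the 5, pck1 (1.06 ± 0.30, adjusted p = 0.0319), where 13.2% of all genes were called. Not called there, but at an unadjusted p below 0.05, were fkbp5 (0.00811) and pck1 (0.00438) on D5. So were fkbp5 (0.00648) and pck1 (0.0453) on D6, and hsd11b2 (0.0482) on D7. The share of all genes at that unadjusted threshold was not counted for this model. For any difference between the days, 2 of 5 genes were called, pck1 (adjusted p = 0.00378) and fkbp5 (adjusted p = 0.00405), where 17% of all genes were, and hsd11b2 lay just past the threshold (adjusted p = 0.052). These comparisons share the D3 libraries with D7 over D3 and are not separate evidence.

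The D7 c library lowered the D7 means of fkbp5 and hsd11b2. Relative to the mean of the a and b libraries of that day, its level was 0.295 times for fkbp5, 0.253 times for hsd11b2, 0.60 times for pomca, 1.1 times for nr3c1 and 1.13 times for pck1. Of the 5 genes, 2 were at 0.5 times or less of both other libraries by library total, as were 20.6% of all genes and 3 of 24 response genes of the receptor. At 2 times or more of both were 0 of the 5 genes, 5.47% of all genes and 2 of the 24 response genes. With the a and b libraries of every day alone, the log2 fold change of D7 over D3 was 3.02 ± 0.19 for fkbp5, 3.14 ± 0.27 for pck1 and 2.16 ± 0.17 for hsd11b2, and all 3 stayed called. The D7 c library also had the lowest sum of the liver markers in the course (2082 CPM), and it stood apart in other lists too. Its brain markers summed to 624 CPM, against 1067 and 1115 CPM in a and b, and its pituitary list to 20.9 CPM, against 59.3 and 54.0 CPM. Its skeletal muscle markers summed to 16976 CPM, against 8458 and 8441 CPM, and its ionocyte list to 596 CPM, against 211 and 219 CPM. Most of the ionocyte difference came from trpv6, with 323 CPM in c and a mean of 18.9 CPM in a and b. The other ionocyte genes were not uniform: foxi3a was higher in c (35.6 CPM, against 12.4 CPM) and ca2 lower (10.5 CPM, against 15.4 CPM). The D6 c library had a liver sum of 2375 CPM and the highest fkbp5 of its day (923 CPM). The part of these tissues in the D7 c levels of fkbp5 and hsd11b2 was not tested.

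**Figure D2:**
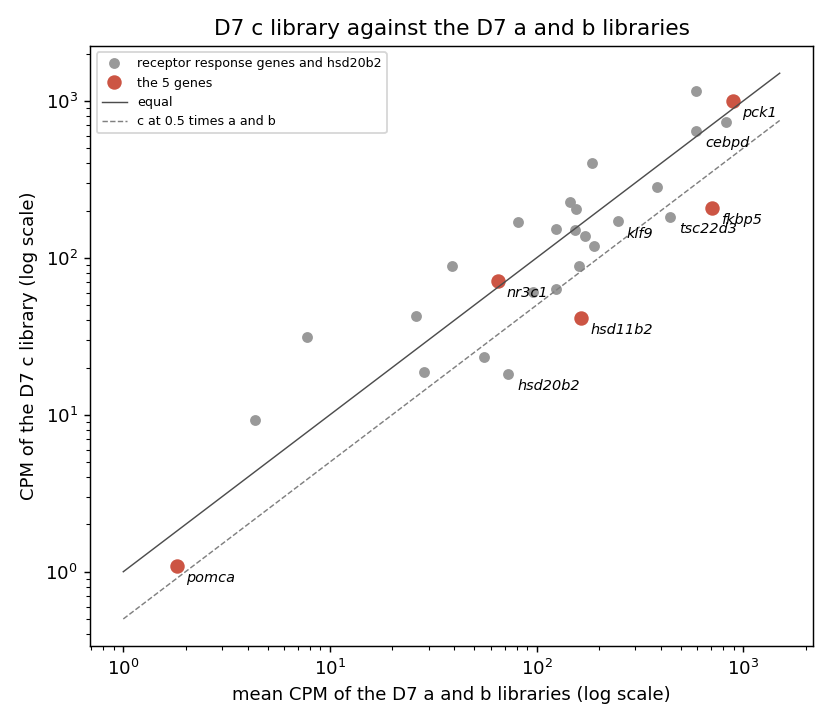
CPM of the D7 c library against the mean CPM of the D7 a and b libraries, both on log scales, for the 5 genes (red) and for the response genes of the receptor with hsd20b2 (grey). The solid line marks equal levels and the dashed line 0.5 times; fkbp5 and hsd11b2 lie under the dashed line, pck1 and nr3c1 near the solid one.

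Across the 15 DEX libraries, 3 of the genes varied together. Pearson's r of log2 CPM was 0.89 between fkbp5 and hsd11b2, 0.82 between fkbp5 and pck1, and 0.75 between pck1 and hsd11b2, whereas it was -0.06 between nr3c1 and fkbp5. These points share their day and letter, and the values are a description. The genes whose pattern was most like each member over these libraries were srrm1 (r = 0.95) and rabgap1l (0.94) for nr3c1, oaz2b (0.96) and the unnamed ENSDARG00000087492 (0.95) for fkbp5, and ENSDARG00000023151, named UCP1 in the symbol table (0.97), for pck1. For hsd11b2 they were ENSDARG00000007753, named CPNE2 (0.95), and rln3a (0.94), and for the sparsely counted pomca they were ENSDARG00000074447, named DAPK3 (0.85), and ENSDARG00000098135, named STK40 (0.85).

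Other genes of the pathway were then read from 5 lists of symbols. Of the response genes of the receptor, 24 identifiers were tested, 16 were higher on D7 than on D3, 0 were lower and 8 were not called, beside 11.8% higher and 13.5% lower among all genes. The median log2 fold change of the 24 was 1.70, and that of all genes tested was 0.06. Leaving out the D7 c library gave 15 higher and 0 lower. On D4 only fkbp5 of these 24 was called against D3.

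The muscle ubiquitin ligase genes of this list, whose products mark muscle proteins for breakdown, rose. The ubiquitin ligase gene fbxo32 had 393, 368 and 283 CPM in the D7 libraries, against 4.48, 4.74 and 4.02 CPM in the D3 libraries (log2 fold change 6.43, adjusted p = 6.0e-06). A further muscle ubiquitin ligase gene, trim63a, had 874, 778 and 735 CPM on D7, against 39.6, 39.2 and 46.0 CPM on D3 (4.40, adjusted p = 8.96e-05). Both were low on D4, when fbxo32 had 8.16, 10.1 and 4.45 CPM, so they did not share the early step of fkbp5. The 4 skeletal muscle markers summed to 8441 to 16976 CPM on D7 and 16952 to 21360 CPM on D3. Of the 4, 0 were called higher and 1 lower, beside 11.8% higher and 13.5% lower among all genes. The part of muscle in the rise of fbxo32 and trim63a was not tested.

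Transcription factors and signalling genes of the same list rose as well. The direct receptor target klf9, a transcription factor gene, had 248, 245 and 171 CPM on D7, against 25.0, 20.2 and 27.7 CPM on D3 (3.31, adjusted p = 2.75e-05), and cebpd, a C/EBP family transcription factor, had 597, 589 and 644 CPM, against 77.5, 84.5 and 80.9 CPM (3.07, adjusted p = 4.04e-05). SOCS3 (ENSDARG00000025428), an inhibitor of cytokine signalling, had 113, 134 and 153 CPM on D7, against 15.8, 19.8 and 12 CPM on D3 (3.24, adjusted p = 7.73e-05). The other identifier named SOCS3 in the list, ENSDARG00000026611, had a log2 fold change of 0.78 and was not called (adjusted p = 0.315). PDK2 (ENSDARG00000059054), a kinase that inhibits pyruvate dehydrogenase, had 563, 620 and 1150 CPM on D7, against 6.32, 9.61 and 82.9 CPM on D3 (4.71, adjusted p = 0.0215), with the c library highest on both days. The kinase gene sgk1, named for its induction by glucocorticoids, had 140, 168 and 204 CPM on D7, against 72.5, 68.3 and 79.0 CPM on D3, and was not called (1.39 ± 0.60, adjusted p = 0.11).

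Of the 9 genes of receptors and receptor chaperones, 2 were higher and 3 lower on D7, beside 11.8% higher and 13.5% lower among all genes. The mineralocorticoid receptor gene nr3c2, whose product binds cortisol as well, had 5.63, 5.85 and 2.12 CPM on D7, against 2.17, 1.54 and 0.924 CPM on D3 (1.66, adjusted p = 0.00974). The D7 c library lay within the D3 range in CPM by library total, but above it on the TMM scale of the tests. The other higher gene was fkbp5. Lower were the chaperone gene hsp90aa1.1 (123, 86.7 and 100 CPM on D7, against 368, 274 and 237 CPM on D3, -1.34, adjusted p = 0.0158), the co-chaperone gene fkbp4, whose product competes with that of fkbp5 for the receptor complex (46.2, 41.9 and 82.5 CPM, against 167, 148 and 130 CPM, -1.17, adjusted p = 0.0164) and PTGES3 (ENSDARG00000089626), a co-chaperone of HSP90 (30.2, 22.7 and 22.1 CPM, against 82.7, 79.4 and 53.8 CPM, -1.37, adjusted p = 0.00133). The other identifier named PTGES3 in the list, ENSDARG00000037284, had a log2 fold change of 0.65 and was not called (adjusted p = 0.0593). Hence the pair of immunophilin genes moved in opposite directions over the course.

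Of 3 genes of cortisol inactivation, 2 were higher on D7, namely hsd11b2 and hsd20b2, beside 11.8% of all genes. The enzyme of hsd20b2 reduces cortisone further in zebrafish, and the gene had 67.4, 78.0 and 18.3 CPM on D7, against 7.25, 6.73 and 6.80 CPM on D3 (3.05, adjusted p = 9.03e-05). With 36.8, 30.5 and 21.6 CPM it was called against D3 on D4 as well (2.10, adjusted p = 0.025). Its D7 c library was low, as it was for hsd11b2.

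Of the stress axis and cortisol synthesis genes, 16 of 24 identifiers were tested, 2 were higher and 0 lower, a share of higher calls near that of all genes (11.8%). They were crhbp, the binding protein of corticotropin-releasing hormone, with 54.6, 54.1 and 23.1 CPM on D7, against 14.2, 19.6 and 16.7 CPM on D3 (1.47, adjusted p = 0.000991), and the hormone gene itself, CRH (ENSDARG00000027657), with 12.1, 15.9 and 6.17 CPM, against 3.49, 4.10 and 6.96 CPM (1.30, adjusted p = 0.0401). The steroidogenic genes star, cyp11a1, cyp17a1, cyp21a2 and cyp11c1 were not called. The median of the 16 was -0.25 on the log2 scale.

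Of 8 gluconeogenesis genes, 5 were higher and 1 lower on D7, beside 11.8% higher and 13.5% lower among all genes. The median log2 fold change of the 8 was 1.15. Besides pck1, the higher genes were tat, the tyrosine aminotransferase (217, 274 and 414 CPM on D7, against 8.96, 7.50 and 41.5 CPM on D3, 4.11, adjusted p = 0.000956), the glucose-6-phosphatase gene g6pc1a.1 (1.31, adjusted p = 0.0269), and the fructose-bisphosphatase genes fbp1b (1.18, adjusted p = 0.0315) and fbp1a (1.13, adjusted p = 0.0112). The mitochondrial counterpart of pck1, pck2, was lower, with 108, 95.1 and 85.0 CPM on D7, against 141, 152 and 229 CPM on D3 (-0.73, adjusted p = 0.0364). It had 442, 394 and 312 CPM on D4, so its highest levels were on D4, before the D5 maximum of pck1. Without the D7 c library 5 were higher and 0 lower.

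**Figure D3:**
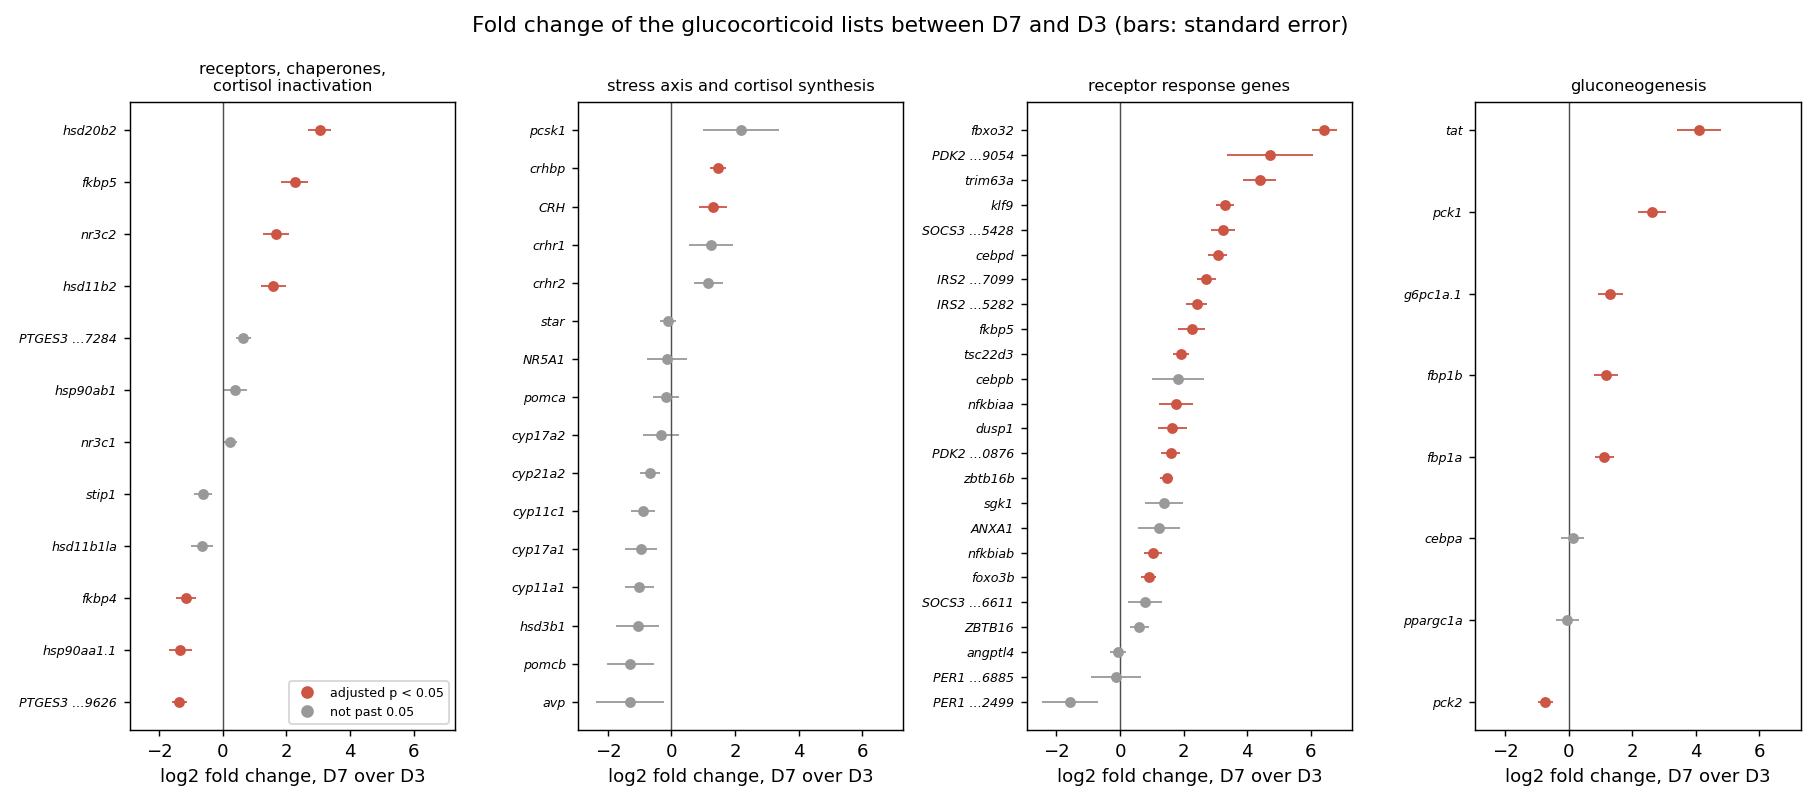
Log2 fold change of D7 over D3 (points, bars are standard errors) for the tested genes of the 5 lists, with red points for an adjusted p below 0.05. Response genes lie mostly to the right of 0 (16 higher, 0 lower). The genes called lower, 3 chaperone genes and pck2, lie to the left, as do others that were not called. Genes with a human-style symbol carry the last digits of their identifier where it is shared.

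In the second experiment, cdkn1a crispants were compared with WT larvae. In the test of all 10 libraries without the set, 0 of the 5 genes were called by edgeR, where 0.168% of 23222 genes were. At an unadjusted p below 0.05 the count was 1 (pck1), where 2738 of these genes passed. DESeq2 called 0 of the 5, where it called 2.29% of all genes. Within each set, however, fkbp5 and pck1 were lower in every crispant library than in every WT library, as were 5.25% of all genes, while 3.97% were higher in this way.

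The level of fkbp5 was 366, 373 and 387 CPM in the crispants of the first set, against 556, 572 and 579 CPM in its WT libraries. In the second set it was 111 and 123 CPM in crispants, against 430 and 246 CPM in WT. The crispants of the first set thus lay inside the range of the WT libraries of the second. Over all libraries the mean was 272 ± 141 CPM in crispants and 476 ± 142 CPM in WT (SD, n = 5 each), with a log2 fold change of -0.80 ± 0.39 (adjusted p = 0.446).

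For pck1 the crispants of the first set had 592, 599 and 597 CPM, against 963, 971 and 961 CPM in WT. In the second set it had 373 and 412 CPM in crispants, against 565 and 495 CPM in WT. The mean over all libraries was 515 ± 112 CPM in crispants and 791 ± 240 CPM in WT, and the log2 fold change was -0.62 ± 0.23 (adjusted p = 0.323). As with fkbp5, the difference between the sets widened the spread of both groups.

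With the set as a block in the model, 2 of the 5 genes were called, where 5.61% of 23936 genes were called and 3.96% were lower in crispants. The log2 fold change was then -0.97 ± 0.17 for fkbp5 (adjusted p = 0.0052) and -0.59 ± 0.06 for pck1 (adjusted p = 0.000165). Leaving out any 1 of the 10 libraries kept both calls, with -1.04 to -0.75 for fkbp5 and -0.65 to -0.56 for pck1. The WT libraries were placed in their sets from the data, which limits these adjusted values.

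The 2 sets were also fitted alone. In the first set, where 27.5% of all genes were called, 3 of the 5 genes passed: fkbp5 was lower by -0.58 on the log2 scale (adjusted p = 1.0e-07), pck1 by -0.67 (adjusted p = 3.91e-09), and nr3c1 was higher by 0.28 (adjusted p = 0.00129). In the second set, where 3.06% were called, 3 passed as well: fkbp5 by -1.52 (adjusted p = 0.00106), pck1 by -0.43 (adjusted p = 0.0171) and hsd11b2 by -0.51 (adjusted p = 0.0201). The test of the difference between the sets called 3 of the 5 genes, where 14.2% of all genes were called. The effect in the second set minus that in the first was -0.93 ± 0.19 for fkbp5 (adjusted p = 0.00172), -0.57 ± 0.12 for hsd11b2 (adjusted p = 0.00167) and -0.35 ± 0.10 for nr3c1 (adjusted p = 0.0172). For pck1 it was 0.26 ± 0.10 (adjusted p = 0.0815).

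The receptor gene nr3c1 had 77.2, 77.4 and 77.5 CPM in the first crispants, against 63.5, 67.5 and 63.0 CPM in WT, and 92.2 and 89.1 CPM in the second crispants, against 94.0 and 100 CPM in WT. The fit of the first set thus called nr3c1 higher in crispants, while that of the second did not call it (-0.093 ± 0.082, adjusted p = 0.675). Levels of hsd11b2 were 54.8, 58.6 and 54.2 CPM in the first crispants, against 54.6, 53.6 and 52.0 CPM in WT, and 26.6 and 29.2 CPM in the second crispants, against 41.9 and 37.6 CPM in WT. Only the second set parted the groups for hsd11b2. For pomca the crispants had 1.66, 1.64 and 2.18 CPM and 2.04 and 1.80 CPM in the 2 sets, against 1.85, 2.68 and 1.97 CPM and 1.04 and 2.65 CPM in WT, with overlap in both.

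**Figure D4:**
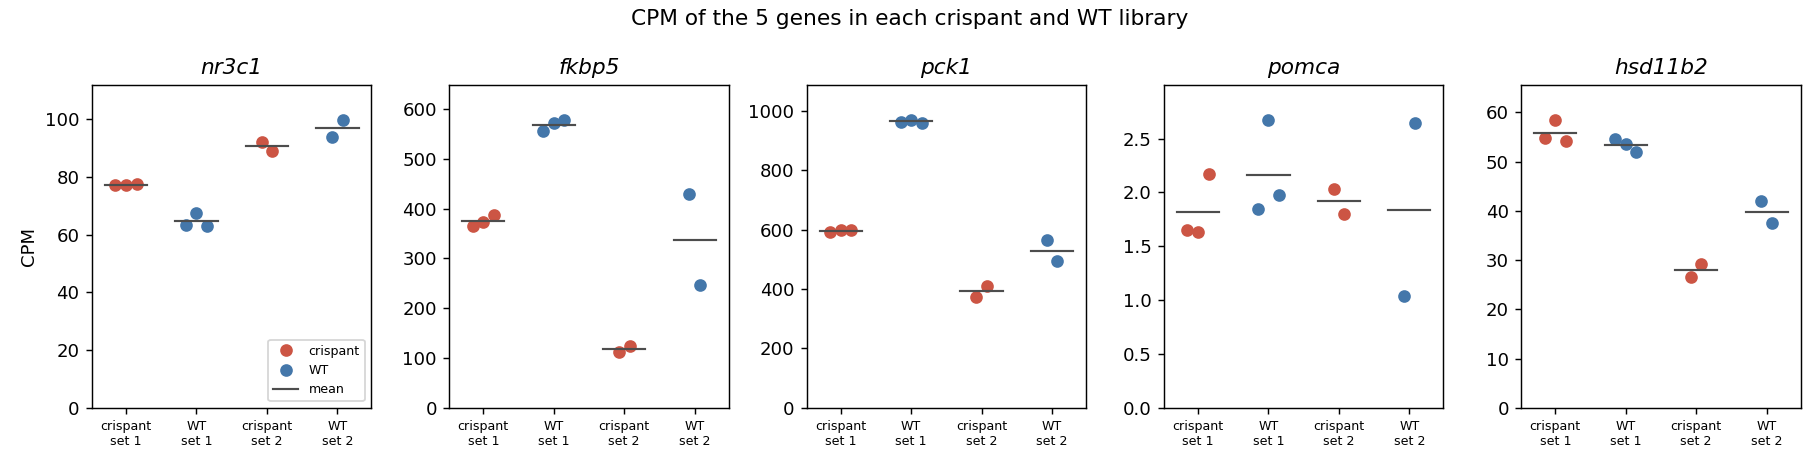
CPM (linear axes from 0) of the 5 genes in each crispant (red) and WT (blue) library by set, with lines at the mean. In both sets fkbp5 and pck1 sit lower in crispants, with pck1 at 592 to 599 CPM in the first set's crispants, against 961 to 971 CPM in its WT libraries.

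Some marker lists of other tissues moved with the groups in both sets, and others did not. The brain list summed to 978 to 997 CPM in the first crispants, against 952 to 1030 CPM in WT. In the second set it summed to 1051 to 1056 CPM, against 1044 to 1051 CPM. The intestine list was lower in the first crispants (1221 to 1232 CPM, against 1339 to 1411 CPM) and higher in the second (758 to 808 CPM, against 696 to 721 CPM). The ionocyte and pituitary lists parted the groups in a single set each. The 6 identifiers of the kidney tubule list summed to 290 to 306 CPM in the first crispants, against 445 to 478 CPM in WT, and to 242 to 282 CPM in the second crispants, against 382 to 427 CPM in WT. In the second set ENSDARG00000010641, a phosphate transporter gene named SLC20A1, carried this, with a mean of 120 CPM in crispants and 273 CPM in WT. The tubule genes cdh17 and slc12a3 had means of 64.1 and 19.0 CPM in those crispants, against 54.7 and 13.7 CPM in WT, so the list did not move as one. Fitted singly, the first set called 5 of the 6 lower in crispants, where 14.9% of all genes were lower. The fit of the second called 1 of the 6 lower, where 1.92% of all genes were. The 7 liver markers summed to 6577 to 6688 CPM in the first crispants, against 5265 to 5784 CPM in WT. In the second set they summed to 5491 to 6309 CPM, against 4838 to 4949 CPM, so this sum was higher in crispants of both sets. Most of it came from apoa1b and apoa2, and the members were not uniform. The liver marker fabp10a had means of 321 CPM in the first crispants, against 349 CPM in WT, and 622 CPM in the second, against 614 CPM. The 4 skeletal muscle markers summed to 29006 to 29097 CPM in the first crispants, against 21987 to 25198 CPM in WT, and to 25004 to 25634 CPM in the second, against 19929 to 21700 CPM in WT. With the set block, 3 of these 4 and 2 of the 7 liver markers were called higher in crispants, where 1.66% of all genes were. The part of these tissues in the results was not tested.

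Among the other genes of the lists, 2 response genes were called lower in crispants without the set in the model. They were sgk1, with 144, 146 and 150 CPM in the first crispants and 142 and 132 CPM in the second, against 263, 262 and 257 CPM and 244 and 231 CPM in WT (-0.82 ± 0.09, adjusted p = 0.00328), and PDK2 (ENSDARG00000059054), with 631, 606 and 623 CPM and 477 and 525 CPM, against 999, 1010 and 964 CPM and 902 and 845 CPM (-0.72 ± 0.11, adjusted p = 0.0292). For both genes, which are named because this test called them, every crispant library lay below every WT library. The share of all genes parted in this way over all 10 libraries was not counted. Over the lists, the response genes then gave 0 higher and 2 lower of 24, and the other 4 lists gave 0 called of 9, 19, 3 and 8 genes.

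With the set as a block, 12 of the 24 response genes were lower and 0 higher in crispants, beside 3.96% lower and 1.66% higher among all genes, with a median of -0.39 where that of all genes was -0.01. In the first set alone 7 were higher and 11 lower, where 12.6% of all genes were higher and 14.9% lower. In the second set alone 0 were higher and 17 lower, where 1.14% of all genes were higher and 1.92% lower. The block gave 3 lower and 0 higher of 8 gluconeogenesis genes, pck1, tat (-0.50, adjusted p = 0.000386) and g6pc1a.1 (-0.75, adjusted p = 0.0388). Of 3 inactivation genes hsd20b2 was lower (-0.45, adjusted p = 0.0107). Of the 9 receptor and chaperone genes 1 was higher (fkbp4, 0.24, adjusted p = 0.0409) and 2 lower (fkbp5 and PTGES3, ENSDARG00000037284), and of 21 stress axis genes 0 were called.

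The DEX and WT libraries came from separate tables and the age of the WT larvae is not labelled, so their levels are only set side by side. For fkbp5 the mean of DEX larvae was 0.245 times the WT mean on D3, 1.2 times on D4, 1.61 times on D5, 1.64 times on D6 and 1.13 times on D7. For pck1 it was 0.208, 0.519, 1.23, 1.01 and 1.17 times over the same days. Both lay below the WT mean on D3 and above it from D5 on. That mean pools the sets, whose WT means were 569 and 338 CPM for fkbp5 and 965 and 530 CPM for pck1. The pck1 means of D6 and D7 (799 and 929 CPM) and the fkbp5 mean of D7 (537 CPM) lay below the WT means of the first set. On D3, 7.75% of all genes lay at least as far from WT as fkbp5 and 5.61% at least as far as pck1. On D6, 98.2% lay at least as far as pck1, and on D7 80.2% lay at least as far as fkbp5. For hsd11b2 the ratios were 0.895, 1.76, 2.22, 2.46 and 2.57. By the mean it was thus the member farthest above WT on D7, where 9.71% of all genes lay at least as far. Its D7 c library, at 41.6 CPM, nevertheless lay below the WT mean of 48.0 CPM. The ratios of nr3c1 stayed at 0.676 to 0.861.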

How the data were processed

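Whole-larva RNA-seq libraries were analysed from 2 deposited tables, which were fitted apart. The authors trimmed reads with Trim Galore, aligned them to GRCz11 with STAR (2.7.8), counted them on genes with HTSeq (0.13.5) and deposited raw counts without normalization. The annotation release and strand setting are not given in the sources used here, so overlapping genes and near-identical copies are uncertain. CPM was computed from the counts and the library total. Tests used R (4.3.3) and edgeR (4.0.16) with TMM scaling, filterByExpr, quasi-likelihood fits and Benjamini-Hochberg adjustment over all genes tested, at 0.05. DEX days were fitted in a five-group model of 15 libraries, and as each day against the others. Alternatives were DESeq2 (1.42.0), RLE scaling, a replicate block, a set block, the sets taken singly, DEX fits without the c libraries, omission of each library in turn, no filter on low counts, and a stricter filter (10 counts in all libraries). The set block combined with other settings, the set difference under other scalings and filters, and the lists without the D7 c library were chosen after seeing the data.

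All columns of per-sample values could be mapped to a group. The letters a, b and c of the DEX columns name libraries within a day. Libraries of a group differed by at least 4.41 times the squared difference of binomial sampling over 23 pairs, so none was counted as a duplicate. The members and lists were chosen with earlier results of these data known. The 68 list symbols were matched to identifiers through a table of gene symbols, which named 29201 of the 32520 identifiers, often with a human-style symbol. They gave 67 identifiers, of which 15 were matched by the stem of the symbol, and 7 symbols were not matched. Named with values were the members and, per list, at most the 6 genes with the largest absolute log2 fold change among those called in D7 over D3 or in crispants over WT. For each member the 2 genes with the highest Pearson's r of log2 CPM (prior count 2) were named, among genes with a mean log2 CPM of at least 1. For pck1 only 1 of them is reported here. The targeted gene cdkn1a, the steroidogenic genes that were not called, PTGES3 (ENSDARG00000037284) and SOCS3 (ENSDARG00000026611) were named outside this rule, after their values were seen. The scripts were tested on simulated data. No sequence or coordinate was read, since no genome of this build was used here.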

Additional observations from a re-analysis of the deposited data

Results flagged for a closer look

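For 3 of the 5 genes the difference between crispants and WT was not the same in the 2 sets of libraries, by edgeR's test of the set by group interaction. The log2 fold change in the second set minus that in the first was -0.93 for fkbp5 (adjusted p = 0.00172), which was lower in crispants of both sets. It was -0.57 for hsd11b2 (adjusted p = 0.00167), whose log2 fold change was -0.51 in the second set and 0.087 in the first. It was -0.35 for nr3c1 (adjusted p = 0.0172), whose log2 fold change was -0.093 in the second set and 0.28 in the first. The fit of the second set alone did not call nr3c1. All 3 differences stayed past the threshold under RLE scaling, with no filter and with at least 10 counts in every library. The second set has 2 libraries in each group.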

How the results depend on the processing

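The calls of fkbp5, pck1 and hsd11b2 in D7 over D3 held under all 7 alternatives and in all 15 fits without a library. The log2 fold change of pomca was -0.17 there, 0.43 with the a and b libraries alone, and -0.43 to 0.26 without any 1 library. Against WT, crispant fkbp5 was -0.58 in the first set alone, -1.52 in the second, -0.97 with the set block, also with at least 10 counts in every library or no filter, and -0.96 with DESeq2 or RLE scaling and the set block. Under the same settings pck1 was -0.67, -0.43, -0.59, -0.59, -0.59, -0.58 and -0.58. The other members were called in a single set at most: nr3c1 was 0.28 and -0.093, hsd11b2 was 0.087 and -0.51, and pomca in the second set was 0.066. Without any 1 library, and over fits with and without the set block, fkbp5 was -1.04 to -0.57, pck1 -0.76 to -0.50, hsd11b2 -0.22 to 0.070 and pomca -0.31 to 0.065. The number of members called in crispants was 0 without the set, 3 in each set alone and 2 with the set block and in each of its alternatives, and 0 to 2 without any 1 library. The cause of these shifts was not tested.

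The letters of the DEX libraries were checked as a pairing. Same-letter libraries of different days correlated in their deviations from the day means with a mean r of 0.422, against -0.173 for other letters. In 37 of 60 cases a library correlated best with its own letter. The rule set beforehand asked for every same-letter pair to exceed 0.1. Since 1 of 30 pairs stayed under it (0.0725, the a libraries of D4 and D6), the letters were not taken as a pairing. What the letters share therefore stays in the spread of the main DEX fits. The c libraries deviated together (r = 0.241 to 0.749 over their pairs) and against the a and b libraries (-0.672 to -0.171). Each c library therefore correlated best with c on every other day. Pairs of an a and a b library of different days correlated as well (r = 0.164 to 0.652), so the letters mainly part c from a and b. With the letter as a replicate block, 7930 genes (36.5%) were called in D7 over D3 and 133 (0.611%) in D4 over D3, against 5493 and 41 without it and 252 with DESeq2 for D4. The block kept the call of fkbp5 in D4 over D3 (2.33, adjusted p = 0.0146). It also called pck1 there (1.43, adjusted p = 0.0499) and hsd11b2 for any difference between days (adjusted p = 0.0371). In D7 over D3 it called 17.6% of all genes higher and 18.9% lower. Of 24 response genes it gave 19 higher and 0 lower, sgk1 now included (1.31, adjusted p = 0.0106). Of 9 receptor and chaperone genes it gave 3 higher and 4 lower, with PTGES3 (ENSDARG00000037284) higher (0.63, adjusted p = 0.0203). Of 16 stress axis genes it gave 5 higher and 1 lower, the last being cyp11c1 (-0.95, adjusted p = 0.0299). No paired analysis was possible for crispants because their columns carry no sample's replicate number. Genes called there were 39 without the set, 532 with DESeq2 and 1344 with the set block. In D4 over D3 the members called without any 1 library were 0 to 2. Scaling by the total alone shifted D7 over D3 by -0.15 on the log2 scale for all genes, which left the direction of the called members. With TMM library sizes the mean of nr3c1 on D7 was 71.7 CPM. The standard error of pomca in D7 over D3 (0.42) was close to those of fkbp5 and pck1 (0.43 each).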
